A study of Mus musculus with 2 samples.

Results

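A microRNA hairpin yields more than its 2 mature arms, and the tags described here are the rest. They are the small RNA tags (distinct sequences) that match one of 1174 annotated mouse miRNA hairpins perfectly but are not part of either mature arm. A tag was selected when it overlapped the most frequent tag of neither the 5p nor the 3p arm by 16 nt or more. Members between the arms are called loop tags, those upstream of the 5p arm 5′ offset tags, and those downstream of the 3p arm 3′ offset tags. Offset tags are known in the field as moRs. Of 1695245 distinct tags in both libraries, 8598 matched a hairpin, 8035 of these belonged to an arm, and 563 were loop or offset tags from 153 hairpins. The members were thus chosen by position and by read counts, since the reads of both libraries together decided the most frequent tag of each arm. That a member has fewer reads than its arm tag follows from this choice and is no result.

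The tags came from mouse embryonic stem cells (mESCs) of the established line J1, grown without feeders on gelatin. The medium of both groups held LIF at 1000 U/mL, which keeps such cells undifferentiated. For 24 h the cells received either 1 μM PD0325901 (PD), an inhibitor of the kinase MEK that blocks ERK signaling, or DMSO, its solvent. Each treatment had 1 small RNA library, made from the mixed RNA of 3 experiments, so no difference below has a replicate check. Ratios are RPM in PD divided by RPM in DMSO, where RPM is the read count relative to all clean reads of its library, scaled to 1000000. The ranges in parentheses after a ratio or share are exact Clopper-Pearson 95% intervals, which cover counting error only, since PCR reads without molecular identifiers are not independent molecules.

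In the nucleus, Drosha with Dgcr8 cuts the stem of the primary transcript and releases a short hairpin, and in the cytoplasm Dicer cuts off its terminal loop and leaves the duplex of the 5p and 3p arms. The loop is usually degraded, and many loops are shorter than the reads a small RNA library keeps. The stretch just outside the Drosha cut can survive as a moR, which ends where the 5p miRNA begins or begins where the 3p miRNA ends. In mESCs most miRNA reads come from a few clusters, among them those of Mir290a to Mir295 and Mir17 to Mir92-1.

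The sequences that carry the results are the loops that filled the whole space between the arms. In each line the 5p arm comes first, the loop is in capitals and the 3p arm follows. The first 3 of these loops were the most frequent tag of what the selection took for the 3p arm.
Mir708: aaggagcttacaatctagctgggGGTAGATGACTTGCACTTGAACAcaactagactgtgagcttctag
Mir700: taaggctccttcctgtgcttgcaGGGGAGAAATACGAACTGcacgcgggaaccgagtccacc
Mir32: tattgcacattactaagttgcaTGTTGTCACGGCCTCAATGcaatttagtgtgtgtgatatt
Mir182: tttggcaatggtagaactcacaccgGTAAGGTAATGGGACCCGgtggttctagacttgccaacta
Mir30e: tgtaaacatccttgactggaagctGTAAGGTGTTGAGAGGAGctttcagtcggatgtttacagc
Mir33: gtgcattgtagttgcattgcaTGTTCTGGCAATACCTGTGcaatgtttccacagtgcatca
Mir292: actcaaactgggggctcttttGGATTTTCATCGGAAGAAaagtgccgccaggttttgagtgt
Mir106b: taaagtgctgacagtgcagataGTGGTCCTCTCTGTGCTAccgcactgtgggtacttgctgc
Mir18: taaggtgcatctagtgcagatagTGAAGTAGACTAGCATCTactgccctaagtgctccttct
Mir363: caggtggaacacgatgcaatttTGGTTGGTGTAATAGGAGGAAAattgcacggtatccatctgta

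On GRCm38 the Mir708 stretch lies at chr7:96249450-96249517 on the plus strand in an intron of Tenm4. Mir700 lies at chr4:135416561-135416622 on the minus strand in an intron of Rcan3, and Mir32 at chr4:56895232-56895293 on the minus strand in an intron of Tmem245. Mir182, of the cluster it shares with Mir96, lies at chr6:30165922-30165986 on the minus strand, and no annotated host gene contained it. Mir30e lies at chr4:120772618-120772681 on the minus strand in an intron of Nfyc. Mir33 lies at chr15:82198127-82198187 on the plus strand in an intron of Srebf2, a regulator of cholesterol synthesis. Mir106b lies at chr5:138165746-138165807 on the minus strand in an intron of Mcm7, a replication helicase subunit. Mir292 lies at chr7:3219200-3219261 on the plus strand, and Mir363 at chrX:52741697-52741761 on the minus strand. Mir18 lies at chr14:115043867-115043928 on the plus strand in an exon of Mir17hg, the noncoding host of its cluster.

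The 5′ offset tags below, with the offset in capitals, ended at or within a few bases of the first base of the 5p arm. Where lower case follows, it is the 5p arm.
Mir20a: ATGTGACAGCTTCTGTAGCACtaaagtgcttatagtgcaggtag
Mir708: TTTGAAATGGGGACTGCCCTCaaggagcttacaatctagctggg
Mir138-1: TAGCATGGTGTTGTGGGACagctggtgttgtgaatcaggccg
Mir328: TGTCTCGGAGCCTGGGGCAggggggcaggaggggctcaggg
Mir96: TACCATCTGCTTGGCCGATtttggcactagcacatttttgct
Mir7-1: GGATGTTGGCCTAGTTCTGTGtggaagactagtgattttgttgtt
Mir331: GGTTTTGTTTGGGTTTGTT
Mir341: TGATGATGTCAGTTGGCCGGT
Mir365-2: TCAAGGACAGCAAGAAAAAT
The Mir20a stretch lies at chr14:115044162-115044205 on the plus strand in an exon of Mir17hg, that of Mir708 at chr7:96249429-96249472 on the plus strand, and that of Mir138-1 at chr9:122682879-122682920 on the plus strand in an exon of Gm47135. Mir328 lies at chr8:105308419-105308459 on the minus strand, Mir96 at chr6:30169506-30169547 on the minus strand, and Mir7-1 at chr13:58392840-58392884 on the minus strand in an intron of Hnrnpk. The Mir331 tag lies at chr10:93963839-93963857 on the minus strand in an exon of Vezt, the Mir341 tag at chr12:109611504-109611524 on the plus strand in an intron of Rian, and the Mir365-2 tag at chr11:79726407-79726426 on the plus strand.

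Clean reads numbered 18870345 in DMSO and 20944808 in PD, of which 11.6% and 10.1% matched a hairpin. All 10 of 10 marker hairpins of mESCs were detected, with 231910 and 215971 arm reads for Mir293 and 3 and 4 for Mir302c. The libraries differed in length makeup, with 7.11% of DMSO and 16.96% of PD clean reads at 28 to 32 nt, and its part in the ratios was not tested. With the clean reads of 20 to 24 nt as denominator the loop ratio given below was 1.46 instead of 1.20. A count of 0 allows up to 3 reads, which is 0.159 RPM in DMSO and 0.143 RPM in PD.

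Loop and offset tags were rare in both libraries. They held 1455 reads in DMSO and 1701 in PD, or 77.1 and 81.2 RPM, with a ratio of 1.05 (0.982 to 1.13). They made up 0.0667% of the hairpin reads in DMSO and 0.0806% in PD. Of the 563 tags, 329 were present in DMSO, 365 in PD and 131 in both, and 360 were read once. The tags were thus mostly single reads, and the read totals rested on a few hairpins.

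By class, the loop held 321 tags from 105 hairpins, with 452 reads in DMSO and 604 in PD. This is 24.0 and 28.8 RPM, a ratio of 1.20 (1.06 to 1.36). The 5′ offset class held 139 tags from 36 hairpins, with 221 and 179 reads, or 11.7 and 8.55 RPM and a ratio of 0.730 (0.596 to 0.893). Mir6236 held 39.5% of its reads, and without this hairpin the ratio was 0.947 (0.730 to 1.23), still below 1 but with an interval that included 1. The 3′ offset class held 103 tags from 28 hairpins, with 782 and 918 reads, or 41.4 and 43.8 RPM and a ratio of 1.06 (0.960 to 1.17). Its direction changed with the hairpins left out. The ratio was 1.42 (1.22 to 1.65) without Mir708, 0.858 (0.763 to 0.965) without Mir1934 and 0.920 (0.684 to 1.24) without Mir708 and Mir1934, which together held 88.9% of its reads. The loop ratio was 1.23 (1.08 to 1.41) without Mir466d, its largest hairpin. Loop reads were 31.1% (28.7 to 33.5%) of the member reads in DMSO and 35.5% (33.2 to 37.8%) in PD.

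Most hairpins with a member gave few reads. Of the 105 hairpins with loop tags, 41 had 1 loop read, 38 had 2 to 9, 26 had 10 or more and 11 had 30 or more. Among the 26 are 10 copies of the Mir466b, Mir466c and Mir466e family with the same 4 tags and 11 reads, so that with hairpins of identical tags counted once 94 remained, 17 of them with 10 or more reads. Of the 36 with 5′ offset tags, 12 had 10 or more and 2 had 30 or more. Of the 28 with 3′ offset tags, 5 had 10 or more and 3 had 30 or more. Between the loop reads and the arm reads of the same hairpin, Spearman's rho was 0.00907 across 105 hairpins and 0.0415 across the 94 with copies counted once. For 5′ offset reads rho was 0.39 across 36 hairpins, and for 3′ offset reads it was 0.174 across 28. These correlations are across hairpins of the same 2 libraries, which are not independent, and are given as descriptions. They leave out hairpins without a tag of the class, so they do not show how these reads relate to arm reads over all hairpins.

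The label of the 3′ offset class did not hold for its main hairpins. In Mir708, Mir700 and Mir32 the most frequent tag of the 3′ side was the loop itself, so that the selection took the loop for the 3p arm and the true 3p miRNA for an offset tag. This was seen from the RefSeq mature sequences (GRCm38.p6), which were found as a pair of arms in 649 of the 1174 hairpins. In 21 of these 649 hairpins an arm tag lay outside both RefSeq arms. It shared no base with them in the loop of 8 hairpins and in the 5′ flank of 1. With the RefSeq arms, the 954 3′ offset reads of Mir708 (492 in DMSO, 462 in PD), the 84 of Mir700 (34 and 50) and the 25 of Mir32 (17 and 8) were reads of the 3p miRNA. The other large 3′ offset hairpin, Mir1934, had 197 reads in DMSO and 361 in PD, a ratio of 1.65 (1.38 to 1.97). All 558 of its reads also matched transcripts of 259 genes elsewhere, so they cannot be assigned to this hairpin. With RefSeq arms and without tags that match a gene elsewhere, 5 reads in DMSO and 3 in PD remained as 3′ offset tags, near or under the limit of a count of 0 in each library.

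The same reading turned Mir708 into the richest source of loop RNA. Its 23-nt loop, shown above, was read 3829 times in DMSO and 5011 times in PD, and with its length variants the loop reached 3928 and 5095 reads. The 5p arm had 4481 and 4018 reads and the 3p arm 492 and 462. Over both libraries the loop thus equalled 106% of the 5p reads and 946% of the 3p reads. Between the treatments the loop had a ratio of 1.17 (1.12 to 1.22), the 5p arm 0.808 (0.774 to 0.843) and the 3p arm 0.846 (0.744 to 0.963). The loop was higher in PD and both arms were lower, and the interval of the loop did not overlap those of the arms.

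Mir700 and Mir32 had loops of 18 and 19 nt that filled the gap up to 1 base. The Mir700 loop had 70 reads in DMSO and 133 in PD, a ratio of 1.71 (1.27 to 2.32). Its 5p arm had 54 and 67 reads and its 3p arm 34 and 50, with ratios of 1.12 (0.770 to 1.63) and 1.33 (0.840 to 2.11), so the intervals of loop and arms overlapped. The Mir32 loop had 44 reads in DMSO and 108 in PD, a ratio of 2.21 (1.54 to 3.22). The 5p arm of Mir32 had 237 and 257 reads (0.977, 0.816 to 1.17) and the 3p arm 17 and 8. The loop of Mir32 was the only product of this hairpin that was higher in PD beyond the counting error. Smaller loops of this kind, chosen after their values were seen, were those of Mir340 with 8 and 11 reads, Mir141 with 8 and 9 and Mir218-2 with 7 and 9, and the intervals of their ratios all included 1. Mir374b had 68 and 49 loop reads by the RefSeq arms (0.649, 0.440 to 0.951), but its most frequent tag there shared 15 nt with the RefSeq 3p arm and did not fill the loop.

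Among the members as selected, 13 hairpins had a loop tag that filled the gap between the arm tags exactly, with 78 reads in DMSO and 162 in PD. These were 17.3% (13.9 to 21.1%) of the loop reads in DMSO and 26.8% (23.3 to 30.5%) in PD. The largest was Mir182, a miRNA of sensory and epithelial cells, whose 18-nt loop was read 31 times in DMSO and 69 times in PD, a ratio of 2.00 (1.30 to 3.17). The 5p arm of Mir182 had 18969 and 23149 reads (1.10, 1.08 to 1.12) and its 3p arm 124 and 109 (0.792, 0.607 to 1.03). Of all the Mir182 products, the loop had the highest ratio, although the loop was 0.242% of the 5p reads.

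The Mir30e loop, also 18 nt, was its hairpin's only member and was read 12 times in DMSO and 26 times in PD (1.95, 0.951 to 4.25), while the 5p arm had 1338 and 1454 reads (0.979, 0.908 to 1.06). The interval of the Mir30e loop included 1. The Mir33 loop of 19 nt was again the only member of its hairpin, with 20 reads in DMSO and 22 in PD (0.991, 0.516 to 1.91). Its 5p arm had 1984 and 2872 reads (1.30, 1.23 to 1.38), and its 3p arm had 7 and 11 reads, fewer than the loop. The interval of the Mir33 loop included both 1 and the ratio of the 5p arm.

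Loops of the embryonic stem cell clusters were rare, and in sum they were more frequent in PD than in DMSO. The 18-nt Mir292 loop had 5 reads in DMSO and 19 in PD (3.42, 1.24 to 11.7), and that of Mir106b 3 and 14 (4.20, 1.17 to 22.8). The loop of Mir18 had 3 and 15 reads (4.51, 1.27 to 24.3), of which the 18-nt tag held 2 and 13. The arms of Mir106b had ratios of 0.929 and 0.902, those of Mir292 1.10 and 0.976, and those of Mir18 1.16 and 1.07. Of 28 hairpins in the cluster list, which includes those of Mir290a to Mir295, Mir302a to Mir367, Mir17 to Mir92-1, Mir106a to Mir363 and Mir106b to Mir25, 12 had loop tags, with 71 reads in DMSO and 126 in PD. Their ratio was 1.60 (1.19 to 2.17), while the arm reads of the same 12 hairpins had 0.858 (0.855 to 0.861). The sums rest on different hairpins, so they do not compare loop and arm within a hairpin. Of the 651047 arm reads in DMSO, 207489 were of Mir290a and 231910 of Mir293. Over both libraries these hairpins had 4 and 1 loop reads. Most of the difference in loop reads lay in the 18-nt tags of Mir292, Mir106b, Mir18 and Mir295, the last with 0 and 15 reads. A ratio of the remaining loop reads was not computed. The list was made with results on these libraries known, so it is not independent evidence of a direction. In the list 2 hairpins, Mir20a and Mir292, had 5′ offset tags, with 6 and 7 reads, and 0 had 3′ offset tags.

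Loops of frequent miRNAs differed in how often an end lay exactly against an arm tag, with neither a gap nor a shared base at that end. Mir295, the last hairpin of its cluster, had 36 loop tags with 29 reads in DMSO and 46 in PD, of which 5 reads touched an arm tag directly. Its most frequent loop tag, 18 nt long, had 0 reads in DMSO and 15 in PD. That tag covers bases 28 to 45 of the hairpin, and the arm tags cover bases 7 to 29 and 44 to 65. It thus spans the gap and overlaps both arm tags. Mir363 had 9 loop tags with 16 and 24 reads, and 37 of these 40 reads touched an arm tag directly. The 22-nt tag shown above, which shares 1 base with the 3p arm tag, held 10 and 16 reads. Mir140, in an exon of Wwp2 in the annotation and best known from cartilage, had a single 20-nt loop form with 19 and 21 reads among 21 and 22 loop reads, beside 144037 and 180700 reads of its 3p arm. The Mir140 loop exceeded the 26 reads in DMSO and 13 in PD of the hairpin's 5p arm only in PD, and its own ratio was 0.944 (0.495 to 1.80). The 20-nt Mir140 tag, bases 27 to 46, also overlaps both arm tags, which cover bases 6 to 27 and 45 to 67.

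The most frequent tags of Mir295 and Mir140, all in capitals, were these.
Mir295: CTGGACTGTACATAGAAA
Mir140: GGTTACGTCATGCTGTTCTA
The Mir295 tag lies at chr7:3220800-3220817 on the plus strand, and the Mir140 tag at chr8:107551270-107551289 on the plus strand.

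Reads under 18 nt were removed, so a whole loop could be read only where the gap between the arms was about 18 nt or more. The median gap between RefSeq arms was 16 nt over 649 hairpins. Among hairpins with 100 or more arm reads, 157 had a gap under 18 nt, of which 34 had loop reads, 241 in all. Of the 69 with a gap of 18 nt or more, 29 had loop reads, 9694 in all, 9006 of them full-length Mir708 loop. In 55 the gap was 18 to 24 nt, and 22 of these 55 had a tag that began and ended within 2 nt of the gap. In 14 the gap was 25 nt or more, and 1 of these 14 had such a tag. Over the 649 hairpins with RefSeq arms, 9666 of the 9999 loop reads were such full-length loops, and 9006 of these 9666 were of Mir708.

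The ratio differed between loop lengths, a split made after the values were seen. Among the members, 18-nt loop tags had 78 reads in DMSO and 202 in PD, a ratio of 2.33 (1.79 to 3.07), while loop tags over 18 nt had 374 and 402 (0.968, 0.839 to 1.12). The share of 18-nt tags among loop reads was 17.3% (13.9 to 21.1%) in DMSO and 33.4% (29.7 to 37.4%) in PD. Median length was 20 nt in both. Over the full-length loops between RefSeq arms, those of 18 nt, from 10 hairpins, had 120 and 260 reads (1.95, 1.57 to 2.44), and those of 19 nt, from 11 hairpins, 69 and 143 (1.87, 1.39 to 2.53). The 19-nt ratio was 1.26 (0.734 to 2.20) without Mir32. The 18-nt ratio was 2.53 (1.52 to 4.39) without Mir700, Mir182, Mir32 and Mir708. Full-length loops of 20 nt, from 10 hairpins, had 22 and 26 reads (1.07, 0.580 to 1.97). The longer ones were almost all of Mir708. Those of 23 nt had the largest difference in reads, 3832 and 5013 (1.18, 1.13 to 1.23). Those of 21 nt had 33 and 20 (0.546, 0.297 to 0.980), those of 22 nt 27 and 35 (1.17, 0.687 to 2.01) and those of 24 nt 25 and 18 (0.649, 0.333 to 1.24). Without Mir708, the 21-nt loops had 2 and 3 reads.

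The other 18-nt reads of the libraries did not move in the same way. All clean reads of 18 nt had a ratio of 1.08, with 718804 in DMSO and 859008 in PD. The 18-nt tags of the arms had 36859 and 16025 reads, a ratio of 0.392 (0.385 to 0.399), and the 18-nt offset tags 208 and 145 (0.628, 0.505 to 0.780). The loops were higher in PD at this length and the arm tags were lower. Whether the size selection of the 2 libraries had a part in the 18-nt loop reads was not tested.

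A part of the loop tags had ends set directly against the arms. Of the loop reads, 21.9% (18.2 to 26%) in DMSO and 31.5% (27.8 to 35.3%) in PD began directly after the 5p arm tag, and 31.2% (26.95 to 35.7%) and 41.1% (37.1 to 45.1%) ended directly before the 3p arm tag. A member may overlap an arm tag by up to 15 nt, and 509 of the 1056 loop reads shared no base with an arm tag.

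The 5′ offset tags that ended directly before the 5p arm tag were 39 tags from 21 hairpins. They held 42 of 221 reads in DMSO, 19% (14.1 to 24.8%), and 64 of 179 in PD, 35.8% (28.7 to 43.3%). The offset class held 69 tags without a base in common with the arm tag, with 63 and 87 reads, a ratio of 1.24 (0.889 to 1.75). Tags that overlapped the arm tag by 10 to 15 nt had 139 and 64 reads. Of these, 83 and 26 reads were of 1 tag of Mir6236. The reads that were fewer in PD were thus those of tags that run far into the 5p arm, and most of their difference lay in this Mir6236 tag. The interval of the tags that lay wholly outside the arm included 1.

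Single 5′ offset hairpins had few reads. Mir708 had 1 read in DMSO and 10 in PD (9.01, 1.28 to 391), all directly before the 5p arm and 10 of 11 in the 21-nt tag shown above. Mir20a had 5 and 6 reads, Mir138-1 6 and 7, and Mir328 4 and 8, with 11 of 11, 12 of 13 and 12 of 12 directly before the arm. Mir96, which shares its cluster with Mir182, had 2 and 6 reads, all 8 directly before the arm. Mir7-1, in the intron of the splicing regulator gene Hnrnpk, had 10 and 6, of which 7 touched the arm. Mir370 had 12 and 8 reads, of which the 18-nt tag with 11 and 8 reads shared 14 nt with the arm tag, so it is a shifted 5p tag in part. For all of these but Mir708 the interval of the ratio included 1. Mir20a belongs to the cluster list, and Mir138-1, Mir328 and Mir96 were chosen after their values were seen.

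With RefSeq arms, and without tags that match a gene elsewhere, 24 hairpins had 5′ offset tags, with 110 reads in DMSO and 115 in PD (0.942, 0.719 to 1.23). Of these 225 reads, 56.0% ended directly before the 5p arm and 69.8% within 2 nt of it. The largest was Mir331, where the selection had taken the offset for the 5p arm. Over all tags its offset had 28 and 41 reads (1.32, 0.796 to 2.22). This includes the 18-nt tag with 7 and 19 reads that the selection had used as the 5p arm tag and that also matched a gene elsewhere. Without it the offset had 21 and 22 reads (0.944, 0.495 to 1.80), 39 of 43 directly before the arm, while the 5p arm had 2 and 6 reads and the 3p arm 130 and 525. The moR of Mir331 thus outnumbered the 5p miRNA, and its interval lay below the 3p ratio of 3.64 (2.997 to 4.44) with or without that tag. Mir341 had 14 and 11 offset reads beside 4495 and 6685 reads of its 3p arm. Only 4 of these 25 offset reads ended within 2 nt of the 5p arm, and the Mir341 tag shown above shares 4 nt with it. Mir365-2 had 7 and 8 offset reads, all 15 within 2 nt of the arm. These 3 hairpins were also chosen after their values were seen. Of the 649 hairpins, 75 had 18 nt or more of annotated sequence before the 5p arm and 58 after the 3p arm, so that most hairpins could not show an offset tag of 18 nt without overlap.

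Several hairpins with many members belong to repeated families or to other RNA genes. Mir466d, in an intron of Sfmbt2 within a repeated miRNA family, had the most loop reads, 66 in DMSO and 76 in PD (1.04, 0.736 to 1.47), against 38 and 61 of its 5p arm and 146 and 138 of its 3p arm, and 7 of its 11 loop tags matched no other hairpin. Mir1983, whose hairpin overlaps a gene for an isoleucine tRNA, had 47 loop tags with 57 and 68 reads, of which 6 touched an arm tag, and 16 offset reads. Its tags were spread along the transcript, and its most frequent 5′ offset tag is the 5′ end of that tRNA.

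The most frequent member tags of these hairpins, all in capitals, were these.
Mir466d loop: TATACATACACGCACACATAGA
Mir1983 loop: AGGTTGTGAGTTCGAGCCT
Mir1983 5′ offset: GCTCCAGTGGCGCAATCGGT
Mir6236 5′ offset: CTGAAAATGGATGGCGCT
Mir1934 3′ offset: GGGGCTGGTGAGATGGCTC
They lie at chr2:10512017-10512038 on the plus strand (Mir466d), chr13:21896949-21896967 on the minus strand and chr13:21897012-21897031 on the minus strand (Mir1983), chr9:110281314-110281331 on the plus strand (Mir6236), and chr11:69663103-69663121 on the plus strand (Mir1934).

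Mir6236, whose sequence is also part of 28S ribosomal RNA, which the transcripts searched did not hold, had 103 5′ offset reads in DMSO and 55 in PD (0.481, 0.340 to 0.674). Its most frequent offset tag, 18 nt long, had 83 and 26 of them and shared 15 nt with the arm tag, which is just under the limit. The Mir6236 arm had 1170 and 1014 reads (0.781, 0.717 to 0.850). Mir6240, a hairpin of the list of doubtful annotations, had 34 and 23 loop reads (0.610, 0.343 to 1.07) beside arms with ratios of 0.480 and 0.359, so its loop was lower in PD together with its arms. All 41 loop reads of Mir3470b (23 in DMSO, 18 in PD) and all 36 5′ offset reads of Mir703 (20 and 16) also matched genes elsewhere, the latter Eef1a1, a translation elongation factor. The 28 3′ offset reads of Mir3473f (15 and 13) matched transcripts of many genes elsewhere, and the 50 loop reads of Mir8114 (21 and 29) matched Glul, the glutamine synthetase gene that overlaps it.

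Over the classes, 8.24% of the loop reads, 9.75% of the 5′ offset reads and 35.1% of the 3′ offset reads matched a gene elsewhere. A match to the host gene only was found for 16.1%, 9% and 5.82%, and no other transcript was matched by 75.7%, 81.3% and 59.1%. Loop reads without any other match had a ratio of 1.25 (1.08 to 1.44), so the loop ratio was as large without tags that matched another searched transcript. Not all tags of uncertain origin were removed by this, since the loop reads of Mir1983 and Mir6240 had no such match and remained.

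Of the 6 noncanonical hairpins listed (those that bypass Drosha or Dicer, or come from tRNA), 3 had loop tags, Mir1983, Mir320 with 2 and 5 reads and Mir877 with 0 and 2. Together they had 59 and 75 loop reads (1.15, 0.804 to 1.64), nearly all of Mir1983. Of the 8 doubtful hairpins listed, 7 were annotated, 1 (Mir6240) had loop tags and 2 had 3′ offset tags with 1 read each.

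Few members differed by 1.5-fold, and the mature arms gave the background. At 30 or more reads over both libraries, 16 pairs of a hairpin and a class could be compared, and 3 were higher in PD by 1.5-fold or more, the loops of Mir182 and Mir30e and the 3′ offset of Mir1934. Of 513 mature arms with 30 or more reads, 5.46% were higher by this fold, and of the 245 with 30 to 300 reads, which are nearer in depth, 8.57%. The pairs lower by 1.5-fold were 2 of 16, the 5′ offset of Mir6236 and the loop of Mir6240, against 13.6% of the arms with 30 or more reads and 17.6% of those with 30 to 300. No test was possible, and with 16 pairs the members' shares are not read as apart from these. Their median ratio was 1.06, with 9 above 1 and 7 below, while the median over the 513 arms was 0.898 with quartiles of 0.756 and 1.05. The intervals of the Mir182 loop, the Mir1934 3′ offset and the Mir6236 5′ offset excluded 1, and those of the Mir30e and Mir6240 loops included it. Next in order above 1 were the Mir295 and Mir363 loops with ratios of 1.43 and 1.35. Next below 1 were the Mir3470b loop with 0.705, the Mir703 5′ offset with 0.721 and the Mir708 3′ offset, which is the 3p miRNA, with 0.846.

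The limit of 16 nt lay in a region with many tags. Tags that overlapped an arm tag by 15 nt, just inside the members, numbered 61 with 141 reads in DMSO and 77 in PD, and those with 14 nt numbered 32 with 47 and 45. Tags with 16 nt, just outside, numbered 115 with 198 and 197 reads, and those with 17 nt 217 with 2284 and 3263. A further 27 tags lay in the loop or flank of 1 hairpin and in an arm of another, and they were counted with the arms.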

How the data were processed

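The authors gel-purified small RNA (18 to 30 nt), sequenced it, removed low-quality, adapter, contaminating and short reads, collapsed identical reads, and deposited a raw count per distinct tag, without normalization. The sample labels name the TruSeq RNA kit and the build mm9, and the deposited tags carry no coordinates. The last line of each file, a total without a tag, was left out. Nothing about other filters was given in the sources used here.

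From the deposited counts, tags were matched without mismatch to the GENCODE M21 hairpins on GRCm38 with Python 3.11.15. ViennaRNA 2.7.2 split each hairpin into arms, and the most frequent tag of each arm was its arm tag. A member was given the class in which most of its bases outside the arm tags lay. Each tag was counted once per class. Intervals are exact (SciPy 1.17.1). The quasi-likelihood test of edgeR and DESeq2 need replicates and were not run. Scale factors of edgeR 4.0.16 (TMM) and DESeq2 1.42.0 were alternatives. Named hairpins were the 10 with most loop reads, the 10 with most offset reads, and, at 30 or more reads, the 5 largest and 5 smallest ratios, besides the lists. Members, lists and rule were chosen with earlier results of these data known. On simulated tags, 444 of 446 loop and offset tags regained their class. The simulated arm tags had far more reads than the loop and offset tags. A loop taken for an arm, as in Mir708, Mir700 and Mir32, could therefore not occur there.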

Additional observations from a re-analysis of the deposited data

How the results depend on the processing

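The loop ratio stayed above 1 under every alternative setting, from 1.19 with RefSeq arms to 1.46 per clean read of 20 to 24 nt. It was 1.38 per hairpin read and 1.44 for tags without any overlap with an arm tag. The RefSeq value is no check of the same loops. It covered the 649 hairpins with a RefSeq pair of arms, where Mir708 held 9023 of 9999 loop reads. The main setting had counted that loop as the 3p arm. The main loop ratio above 1 also rested on the 18-nt tags, by the split made after the values were seen. Loop tags over 18 nt had 0.968 (0.839 to 1.12), and those of 18 nt had 2.33 (1.79 to 3.07). The 5′ offset ratio, 0.730, turned above 1 with under 10 nt of overlap (1.26), no overlap (1.24), both arm tags at 10 or more reads (1.09) and RefSeq arms (1.03). Each of these drops the most frequent Mir6236 offset tag together with other tags, and their separate parts were not tested. Leaving out the whole Mir6236 hairpin alone gave 0.947. The 3′ offset ratio, 1.06, turned below 1 with under 10 nt of overlap (0.859), no overlap (0.860) and both arm tags at 10 or more reads (0.865). It was also below 1 with no tag of another transcript (0.822) and no tag of a gene elsewhere (0.849). All of these drop all or most of the Mir1934 reads, and leaving out Mir1934 alone gave 0.858. The 3′ offset ratio was 1.62 with RefSeq arms, 1.21 per hairpin read, 1.28 per clean read of 20 to 24 nt and 1.17 with size factors of DESeq2.

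The loop share of member reads (31.1% in DMSO, 35.5% in PD) became 33.9% and 41.9% with under 10 nt of overlap, 24.4% in DMSO without overlap, 35.3% and 44.2% with both arm tags at 10 or more reads, and 93.1% and 91.9% with RefSeq arms. It was 42.7% in PD without tags of another transcript, and 34.7% and 44.6% without tags of a gene elsewhere. The share of member reads with an end directly against an arm tag (26.3% in DMSO, 30.7% in PD) became 38.3% and 45.7%, 43.6% and 52.2%, 37.6% and 44.9%, and 90.8% and 91.1% in the same order of overlap and arm settings. It was 31.3% and 39.7% without tags of another transcript, and 32.5% and 41.6% without tags of a gene elsewhere. In every setting this share was higher in PD, but all settings use the same 2 libraries. With RefSeq arms the intervals of DMSO (89.9 to 91.6%) and PD (90.3 to 91.8%) overlapped. Those of the main setting (24.1 to 28.7% and 28.6 to 33%) overlapped slightly.

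Of the counts past 1.5-fold (3 higher, 2 lower), the higher count was 5 with RefSeq arms and with size factors of DESeq2, 6 per hairpin read, 7 per clean read of 20 to 24 nt and 20 without a minimum of reads. The lower count was 1 in each of these but the last, where it was 16, and 1 with either overlap limit, both arm tags at 10 or more reads, or at least 100 reads. It was 4 for tags of 24 nt or less. With RefSeq arms and no tag of a gene elsewhere, an alternative chosen after seeing the data like the removal of tags of a gene elsewhere, the 5′ offset ratio was 0.942, the 3′ offset ratio 0.541 (8 reads), the loop share 97.4% and 98.0%, the direct ends 94.8% and 96.7%, and the lower count 1. With tags of 1 hairpin only and with TMM factors, ratios and shares stayed within their intervals, while the lower count became 3 with the former and the higher count 4 with the latter. No paired analysis was possible because each treatment had 1 library. Few reads limited most hairpins, and the lack of replicate libraries limited all of them, Mir708 included.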
